A study of Homo sapiens with 10 samples.

Results

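Integrins and laminins are the receptors and the matrix proteins through which a cell holds on to its basement membrane. The count table of this study listed 38 integrin and laminin chains among 60448 genes, chosen by symbol alone as the protein-coding integrin α chains (18), integrin β chains (8) and laminin α, β and γ chains (12) of GENCODE 44. Their transcripts were compared between EA.hy926 and HMEC-1, the 2 human endothelial cell lines of the series, both labelled wild type and both untreated, with 5 biological replicates each. EA.hy926 was made by fusing umbilical vein endothelial cells with the lung carcinoma line A549, and it was kept in Advanced DMEM with 5% FBS. HMEC-1 came from microvascular endothelium of the skin and was immortalized with the SV40 large T antigen, and it was kept in MCDB 131 with 10% FBS, 10 ng/mL EGF and 1 µg/mL hydrocortisone. Line and medium therefore cannot be told apart, and since each group is a single line the p-values measure the spread between cultures of that line. The cells were confluent when they were lifted with trypsin, and poly(A) RNA was sequenced.

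An integrin is a dimer of an α and a β chain that spans the plasma membrane, binds matrix or a counter-receptor outside and joins actin or intermediate filaments inside through adaptor proteins. The β1 chain pairs with many α chains, among them receptors for collagens, laminins and fibronectin, whereas β4 pairs only with α6 and builds the hemidesmosome of epithelia. A laminin is a trimer of an α, a β and a γ chain; laminins with α4 or α5 are those of endothelial basement membranes, and LAMA3 and LAMB3 belong to a laminin that anchors epithelia.

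The libraries held 34846046 to 39899324 counts for EA.hy926 and 33391640 to 43877224 for HMEC-1. Endothelial identity was checked on 12 markers, whose summed level ran from 4735.6 to 5394.8 CPM (counts per 1000000 after TMM scaling) over the EA.hy926 libraries and from 1756.4 to 1807.8 over those of HMEC-1. Of the defining ones, PECAM1 was at 1633.3 ± 158 CPM in EA.hy926 against 254 ± 7.16 in HMEC-1 (mean ± SD, n = 5 here and below), while EMCN was within 3 counts, the detection floor, in every EA.hy926 library. Of the 12, all tested, 6 were higher and 2 lower in EA.hy926 past both thresholds (adjusted p under 0.05 and absolute log2FC over 1). That is 66.7%, beside 35.5% of all genes tested, 19.1% higher and 16.4% lower. The lower ones were EMCN and CLDN5 (log2FC of EA.hy926 over HMEC-1 = -4.27 for CLDN5). For KDR no difference was detected (log2FC = -0.04). Epithelial markers (12 genes) summed to 1275.6 to 1389.0 CPM in EA.hy926 against 429 to 492 in HMEC-1, with CDH1, ELF3, ESRP1 and GRHL2 at the floor in both lines. KRT7, KRT8 and KRT18 made up most of the sum. Of 8 epithelial markers tested, 2 were higher and 3 lower in EA.hy926 past both thresholds (62.5%, beside the same 35.5% of all genes). The higher ones were KRT8 (546 ± 21.7 against 19.2 ± 0.947 CPM, log2FC = 4.83) and the scarce EPCAM (0.895 against 0.246 CPM, log2FC = 1.83). The lower ones were KRT19, CLDN7 and CLDN4 (log2FC = -4.71, -4.54 and -1.42), scarce in HMEC-1 too (3.56, 3.81 and 1.47 CPM). Keratinocyte markers (8 genes) summed to 149 to 161 CPM in EA.hy926 against 1.28 to 2.06 in HMEC-1. Most of the former was COL17A1 (134 CPM), and KRT5, KRT14 and DSG3 were at the floor in both lines. Of 4 tested, COL17A1, KRT15 and TP63 were higher and SFN was lower in EA.hy926 past both thresholds (100.0%). KRT15 was at 18.8 ± 2.04 CPM in EA.hy926 against 0.609 ± 0.197 in HMEC-1. Fibroblast and mural markers (10 genes) summed to 411 to 469 CPM in EA.hy926 against 479 to 510 in HMEC-1, from different genes. RGS5 was at 430 ± 23.5 CPM in EA.hy926 against 5.05 ± 0.221 in HMEC-1, and COL1A1 at 0.318 ± 0.0977 against 358 ± 9.29. Of 7 tested, 2 were higher and 5 lower past both thresholds (100.0%, beside 35.5% of all genes). Leukocyte and platelet markers (12 genes) summed to 2.33 to 2.60 CPM in EA.hy926 against 1.89 to 2.20 in HMEC-1. The part of these differences in the results below was not tested, and in bulk RNA fewer cells of a type and less RNA per cell cannot be told apart.

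To show the sequence next to the chains that differed together or most, the 250 bases before the RefSeq start are printed for LAMA3 and LAMB3, 2 chains of the epithelial laminin, and for ITGA2, the chain with the largest measured rise. The windows are on GRCh38.p14, at chr18:23872770-23873019 (plus strand) for LAMA3, at chr1:209651375-209651624 (minus strand) for LAMB3 and at chr5:52989102-52989351 (plus strand) for ITGA2, and capitals mark TGANTCA, the recognition motif of AP-1, which reads the same on both strands.
LAMA3: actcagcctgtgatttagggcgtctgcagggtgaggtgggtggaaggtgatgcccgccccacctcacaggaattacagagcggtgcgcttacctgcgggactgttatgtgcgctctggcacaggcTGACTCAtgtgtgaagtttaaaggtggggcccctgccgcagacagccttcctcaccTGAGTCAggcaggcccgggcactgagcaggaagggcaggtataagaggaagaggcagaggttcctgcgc
LAMB3: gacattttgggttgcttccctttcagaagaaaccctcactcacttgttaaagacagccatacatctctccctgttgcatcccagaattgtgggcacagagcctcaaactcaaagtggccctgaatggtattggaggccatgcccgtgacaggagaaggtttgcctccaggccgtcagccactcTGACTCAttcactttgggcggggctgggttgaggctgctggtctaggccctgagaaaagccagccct
ITGA2: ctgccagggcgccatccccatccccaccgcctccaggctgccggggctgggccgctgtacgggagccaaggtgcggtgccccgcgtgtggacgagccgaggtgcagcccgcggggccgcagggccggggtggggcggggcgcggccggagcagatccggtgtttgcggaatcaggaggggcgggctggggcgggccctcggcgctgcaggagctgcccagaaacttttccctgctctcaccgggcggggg
RefSeq gave windows for 26 of the 38 chains, 33 windows in all, and TGANTCA occurred in 2 of them (6.06%), against 6.57% of all 35116 windows. It stood at 125 and 69 bases before the LAMA3 start and at 67 bases before the printed LAMB3 start, and the share over the chains was close to that over all genes. RefSeq gave 3 windows for LAMB3, of which the printed one holds the motif and the other 2 (chr1:209652330-209652579 and chr1:209652426-209652675) hold none. The printed starts of LAMA3 and LAMB3 both lie inside the genes as annotated by GENCODE, which begin at 23689453 on chromosome 18 (plus strand) and at 209652425 on chromosome 1 (minus strand). The GC box, GGGCGG on either strand, occurred in 17 of the 33 windows (51.5%, against 42.6% of all windows), 4 times in that of ITGA2, and TATAAA in 2 (6.06%, against 10.7%). ITGB4 and ITGA9 had no entry.

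Of the 38 chains, 31 passed the filter on low counts, and 29 of these differed between the lines at an adjusted p under 0.05 (edgeR quasi-likelihood test, Benjamini-Hochberg adjustment over 16310 genes), 19 higher and 10 lower in EA.hy926. That is 93.5% of those tested, beside 85.8% of all genes tested. With an absolute log2FC over 1 as well, 14 chains were higher and 5 lower in EA.hy926, together 61.3% of those tested, where 35.5% of all genes passed, 19.1% higher and 16.4% lower. The median log2FC (EA.hy926 over HMEC-1) of the chains tested was 0.72, against -0.01 over all genes, and the median absolute log2FC 1.37 against 0.651. These shares describe chains that passed the filter, and ITGA9, ITGB6 and ITGAX passed it mostly through the line in which they were high. Among integrin chains, 7 were higher and 5 lower past both thresholds of 21 tested, and among laminin chains 7 were higher and 0 lower of 10 tested by edgeR. The count of lower laminin chains was also 0 by DESeq2, by limma-voom and at an unadjusted p under 0.05, but LAMC3, too low to be tested, had more counts in HMEC-1. Replicate libraries of a line lay close together: over the chains with at least 100 counts in each library the median coefficient of variation was 3.77% in EA.hy926 (22 chains) and 3.61% in HMEC-1 (23 chains).

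**Figure D1:**
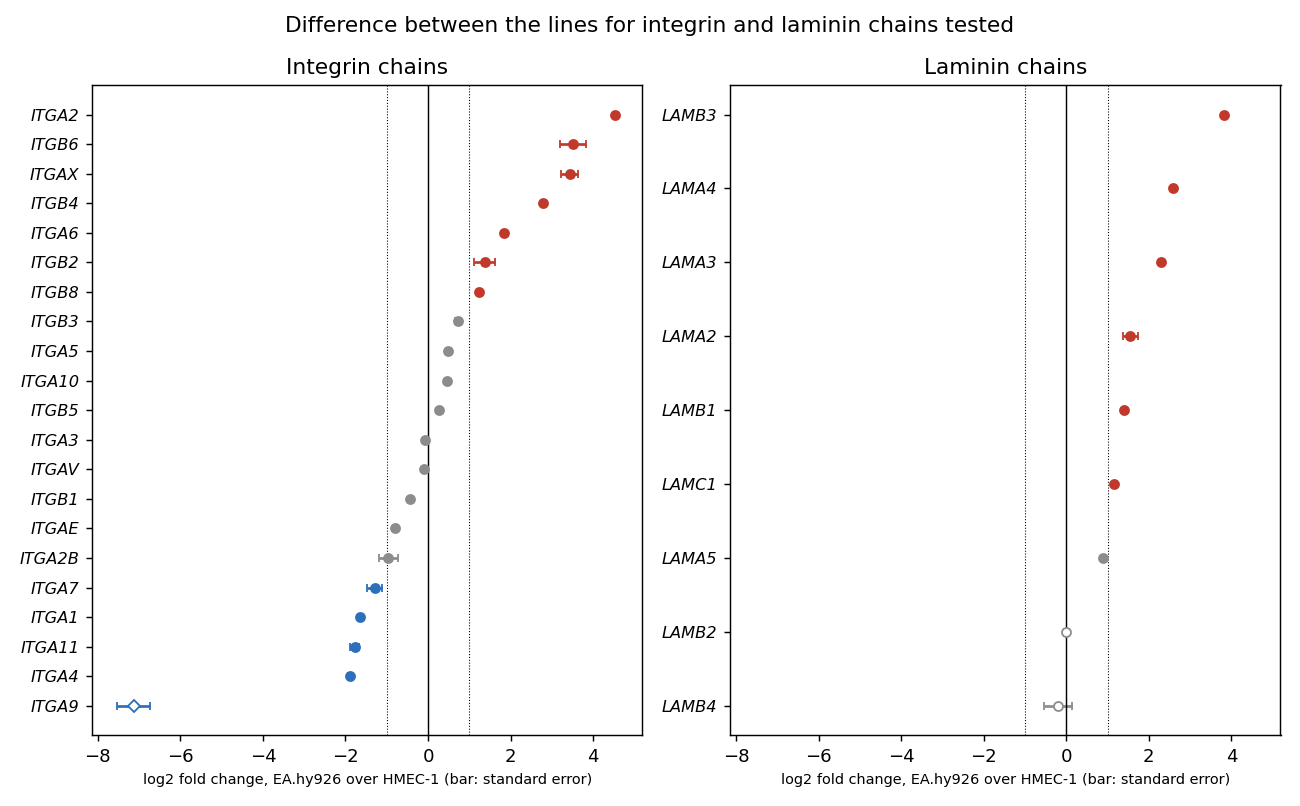
The log2 fold change of EA.hy926 over HMEC-1 (horizontal axis) with its standard error as a bar, for the 21 integrin chains (left) and 9 of the 10 laminin chains (right) tested, with dotted lines at an absolute log2FC of 1. Red points passed both thresholds higher in EA.hy926, blue points lower, grey points passed only the adjusted p, open circles neither, and the open diamond (ITGA9) has 1 line within 3 counts in every library, so its value is no measure of size. Integrin chains lie on both sides of 0, and 7 of the laminin chains drawn lie above it.

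The collagen receptors, the α chains that carry an inserted collagen-binding domain, were detected in both lines and differed in both directions. ITGA2 (ENSG00000164171, chr5:52989340-53094779), the chain of the platelet and epithelial collagen receptor, stood at 277, 280, 272, 254 and 257 CPM in the EA.hy926 libraries and at 13.9, 10.4, 12, 11.2 and 10.9 CPM in those of HMEC-1. Every EA.hy926 library was far above every HMEC-1 library, and the difference of 23.0-fold (log2FC = 4.53 ± 0.052 SE, adjusted p = 3.5e-25) was the largest among the integrin chains with 10 or more counts in every library. ITGA1 (ENSG00000213949, chr5:52787916-52959209), which prefers the collagen of basement membranes, was lower instead, at 9.94, 9.97, 10.8, 9.99 and 8.60 CPM in EA.hy926 and 29.5, 32.3, 32.0, 29.4 and 30.6 CPM in HMEC-1. The groups did not overlap, with a difference of 3.12-fold (log2FC = -1.64 ± 0.054, adjusted p = 2.4e-17). Of the exon bases of ITGA1, 13.2% are shared with other genes, among them PELO and RPL17P21 on the same strand and ITGA2-AS1 on the opposite strand. ITGA1 and ITGA2 are neighbours on the plus strand of chromosome 5, 30.1 kb apart with 0 protein-coding genes between them, and they moved in opposite directions. The other 2 collagen receptors split as well. ITGA11, the receptor for fibrillar collagen in mesenchymal cells, was lower in EA.hy926 (1.71 ± 0.202 against 5.90 ± 0.429 CPM, log2FC = -1.78 ± 0.10, adjusted p = 4.5e-13). ITGA10, first known from cartilage, was higher by less than the fold threshold (87.0 ± 6.57 against 63.5 ± 2.25 CPM, log2FC = 0.46 ± 0.042, adjusted p = 1.8e-09). Per kilobase of exon, ITGA10 was the highest of these chains in HMEC-1, at 10.2 CPM against 1.66 for ITGA1 and 1.48 for ITGA2. In EA.hy926, ITGA2 (33.9) was above ITGA10 (13.9) by that measure.

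The laminin receptors differed in the chains that form the hemidesmosome, ITGA6 and ITGB4, and hardly in ITGA3. ITGB4 (ENSG00000132470, chr17:75721328-75757818), whose long cytoplasmic tail binds plectin, was at 333, 294, 295, 303 and 278 CPM in EA.hy926 and at 44.5, 41.1, 42.0, 43.7 and 45.9 CPM in HMEC-1. The lowest EA.hy926 library was several times the highest of HMEC-1, and the lines differed 6.93-fold (log2FC = 2.79 ± 0.042, adjusted p = 4.1e-23). Its only α partner, ITGA6 (ENSG00000091409, chr2:172427354-172506459), was at 536, 508, 532, 492 and 501 CPM in EA.hy926 and at 144, 147, 145, 142 and 145 CPM in HMEC-1. Here too the groups stood apart, by 3.56-fold (log2FC = 1.83 ± 0.028, adjusted p = 3.6e-23). ITGA3, which with β1 binds laminins of epithelia and endothelium, was at 603, 580, 613, 599 and 597 CPM in EA.hy926 and at 637, 627, 633, 636 and 625 CPM in HMEC-1. Its groups did not overlap either, but the difference was 1.06-fold (log2FC = -0.08 ± 0.022, adjusted p = 2.9e-03). ITGA7, the laminin receptor of muscle, was lower in EA.hy926 at a very low level in both lines (21 to 38 counts against 61 to 111, log2FC = -1.29 ± 0.18, adjusted p = 8.5e-07).

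Among the receptors for fibronectin and vitronectin that recognise the RGD sequence, ITGA5 and ITGAV showed small differences at high levels. ITGA5, the classic fibronectin receptor chain, was at 1075.4, 1039.1, 1067.0, 1018.6 and 1030.8 CPM in EA.hy926 and at 752, 761, 759, 751 and 738 CPM in HMEC-1, which is 1.39-fold higher (log2FC = 0.48 ± 0.023, adjusted p = 2.2e-14). ITGAV, the α chain shared by several vitronectin and latent TGF-β receptors, was at 299 ± 4.26 CPM against 317 ± 5.89 CPM (log2FC = -0.09 ± 0.023, adjusted p = 1.7e-03). The differences of ITGAV and ITGA3 were smaller than the shift of all genes when libraries were scaled by their totals (median log2FC moved by -0.135). Of the 4 α chains of this kind, 3 were tested and 0 passed both thresholds, which 35.5% of all genes passed. With 3 chains this count is too small to set apart from that share. The third of them, ITGA2B of the platelet fibrinogen receptor, had 13 to 21 counts in EA.hy926 against 24 to 55 in HMEC-1 (log2FC = -0.97 ± 0.23, adjusted p = 5.9e-04). ITGA2B sat at the edge of the fold threshold and passed it without EA.hy926 replicate 4 (-1.07) and without HMEC-1 replicate 1 (-1.01), 2 (-1.09) or 4 (-1.0). ITGA8 had 0 counts in each of the 10 libraries, which allows a level of up to 0.0651 to 0.0904 CPM per library.

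The β chains listed as partners of ITGAV (ITGB3, ITGB5, ITGB6 and ITGB8) rose in EA.hy926 in 4 of 4 cases by the adjusted p, which 85.8% of all genes passed in either direction. Of these, ITGB6 and ITGB8 were past the fold threshold as well. Of all genes, 35.5% passed both thresholds, 19.1% higher. ITGB1, which also pairs with ITGAV, is not in that list and was lower, as described below. ITGB6, an epithelial chain that activates latent TGF-β, had 53, 46, 56, 54 and 43 counts in the EA.hy926 libraries and 2, 1, 5, 4 and 12 in those of HMEC-1. The groups did not overlap, but the level in HMEC-1 was close to the floor and its replicate 5 held as many counts as the other 4 together. The log2FC of 3.51 ± 0.32 (adjusted p = 1.3e-09) moved to 4.17 without that library. ITGB8, which also activates latent TGF-β, was at 52.1 ± 4.28 CPM in EA.hy926 against 22.2 ± 1.07 in HMEC-1 (log2FC = 1.23 ± 0.051, adjusted p = 1.6e-15). ITGB3, the vitronectin receptor chain of activated endothelium and platelets, was at 58.9, 52.3, 54.0, 44.4 and 46.2 CPM in EA.hy926 and at 32.0, 29.9, 31.9, 29.7 and 31.6 CPM in HMEC-1. It was 1.65-fold higher without overlap (log2FC = 0.72 ± 0.059, adjusted p = 2.1e-10), and 33.2% of its exon bases are shared with an overlapping gene model on the same strand, whose reads cannot be told apart from its own. ITGB5, another vitronectin receptor chain, was 1.21-fold higher (297 ± 6.08 against 246 ± 7.95 CPM, log2FC = 0.27 ± 0.026, adjusted p = 3.4e-09).

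ITGB1 (ENSG00000150093, chr10:32887273-33005792), the common β chain, went the other way from the other β chains tested. It was at 1187.7, 1151.2, 1184.3, 1123.6 and 1141.7 CPM in EA.hy926 and at 1544.4, 1579.6, 1581.4, 1560.1 and 1557.3 CPM in HMEC-1. Without overlap between the groups, the difference was 1.35-fold (log2FC = -0.43 ± 0.023, adjusted p = 8.9e-14), under the fold threshold.

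ITGA4 and ITGA9, α chains of separate receptors that between them bind VCAM-1, fibronectin and tenascin-C, were both lower in EA.hy926. ITGA4 (ENSG00000115232, chr2:181457202-181538940) was at 59.8, 64.4, 60.9, 58.3 and 57.4 CPM in EA.hy926 and at 221, 220, 230, 226 and 227 CPM in HMEC-1. All 5 HMEC-1 libraries were above all 5 of EA.hy926, by 3.74-fold (log2FC = -1.90 ± 0.030, adjusted p = 8.5e-23); 26.4% of the exon bases of ITGA4 lie opposite exons of CERKL, and whether reads were counted by strand is not stated. ITGA9 (ENSG00000144668, chr3:37452115-37823507), a chain of lymphatic endothelium and smooth muscle, had 0, 0, 0, 0 and 2 counts in EA.hy926 and 58, 102, 98, 81 and 66 counts in HMEC-1. EA.hy926 was thus lower by a factor of at least 22.1, computed against 3 counts per library (adjusted p = 3.8e-13), and 9.23% of its exon bases lie opposite ITGA9-AS1.

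Of 7 chains known from leukocytes, 3 passed the filter, and the other 4 were near the floor. ITGAX, the α chain of a complement receptor of myeloid cells, had 86, 87, 86, 88 and 96 counts in EA.hy926 and 10, 15, 8, 5 and 7 in HMEC-1, so the lines did not overlap (log2FC = 3.43 ± 0.21, adjusted p = 1.1e-12). ITGB2, the β chain of the leukocyte integrins, had 26 to 52 counts against 11 to 27, groups whose counts overlapped in range but whose normalized levels did not (1.07 ± 0.235 against 0.416 ± 0.174 CPM, log2FC = 1.37 ± 0.25, adjusted p = 3.0e-05). ITGAE, the α chain that binds E-cadherin, was lower in EA.hy926 (13.1 ± 1.19 against 22.5 ± 1.45 CPM, log2FC = -0.79 ± 0.060, adjusted p = 7.7e-11). ITGAL, ITGAM, ITGAD and ITGB7 were not tested, with at most 7 counts in any library. The leukocyte marker PTPRC had 2 to 6 counts in the EA.hy926 libraries and 0 to 1 in those of HMEC-1, and was not tested. CD14, a myeloid marker, was lower in EA.hy926 (0 to 4 against 17 to 26 counts, log2FC = -3.50). Of 3 leukocyte and platelet markers tested, 1 was higher (ITGB2) and 1 lower (CD14) past both thresholds (66.7%, beside 35.5% of all genes). The sums of these markers are given above.

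**Figure D2:**
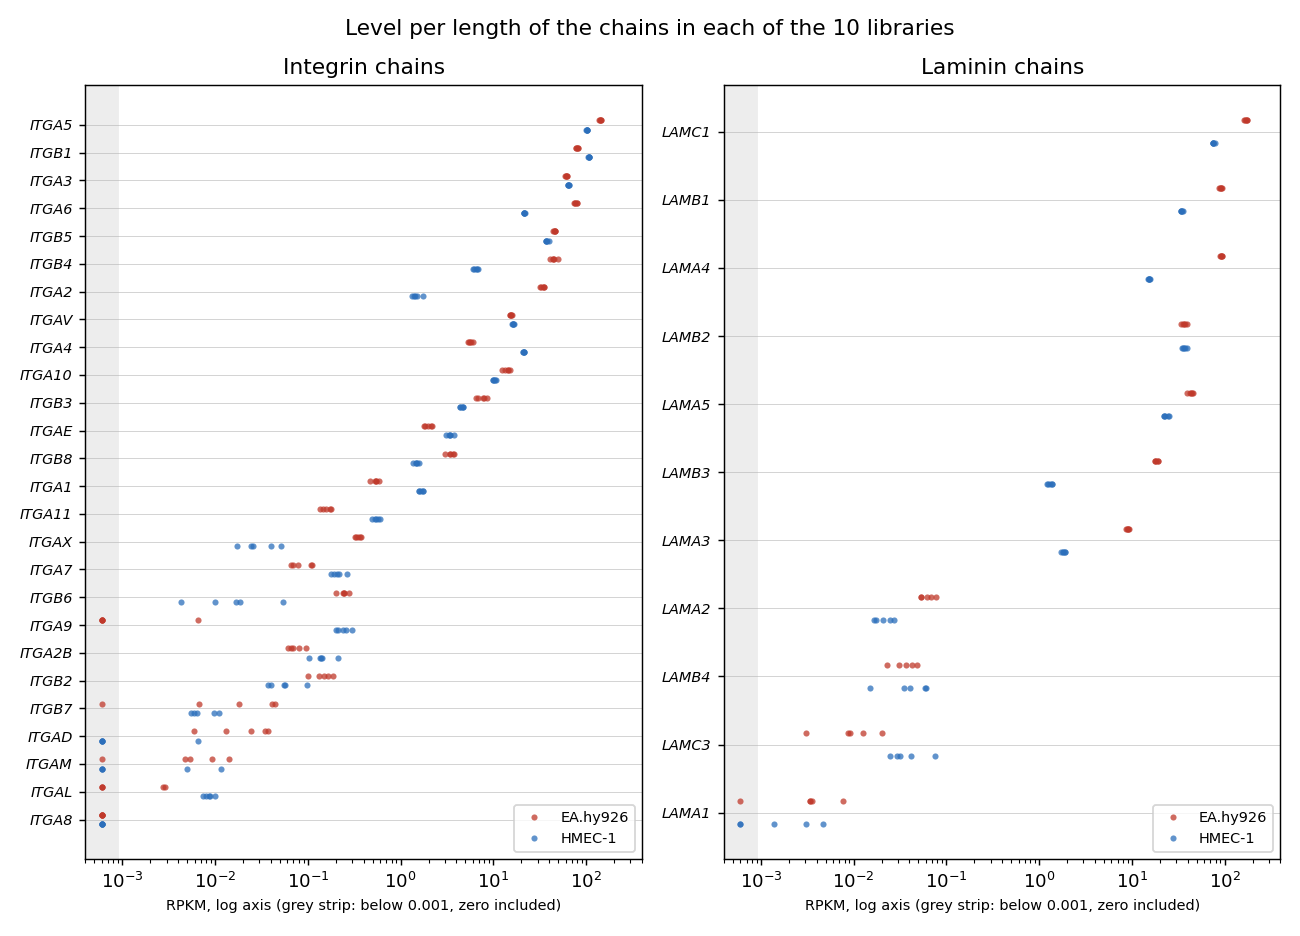
Level per length (RPKM, CPM per kilobase of exon, log axis) of each of the 26 integrin chains (left) and 11 laminin chains (right) in each of the 10 libraries, 1 point per library, red for EA.hy926 and blue for HMEC-1; points in the grey strip are below 0.001, zero included. The lines are farthest apart in ITGA2, ITGB4, ITGA9, ITGAX, ITGB6, LAMB3 and LAMA4, whereas ITGA3, ITGAV and LAMB2 lie almost on top of each other.

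The 7 laminin chains past both thresholds were higher in EA.hy926, epithelial and endothelial chains alike. Of the epithelial chains, LAMB3 (ENSG00000196878, chr1:209614870-209652425) was at 82.0, 83.3, 85.5, 89.6 and 88.3 CPM in EA.hy926 and at 6.42, 5.74, 5.62, 6.45 and 6.04 CPM in HMEC-1. That gap of 14.2-fold (log2FC = 3.83 ± 0.044, adjusted p = 4.6e-25) was the widest among the laminin chains. LAMA3 (ENSG00000053747, chr18:23689453-23956222) was at 134, 125, 131, 133 and 127 CPM against 25.0, 25.9, 27.5, 27.8 and 26.4 CPM, a difference of 4.90-fold without overlap (log2FC = 2.29 ± 0.033, adjusted p = 2.0e-23). Both chains were thus higher in every EA.hy926 library than in any HMEC-1 library. KRT5 and KRT14, keratins of the basal epithelial cells in which these laminin chains are best known, were at the floor in both lines. Of the other keratinocyte markers, COL17A1, KRT15 and TP63 were higher in EA.hy926 (log2FC = 9.69, 4.93 and 2.55) and SFN was lower (log2FC = -2.25).

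The endothelial α chains, LAMA4 and LAMA5, were more abundant per length than LAMA3 and LAMB3 in both lines. In EA.hy926 they were at 91.6 and 43.0 RPKM against 8.97 and 18.5, and in HMEC-1 at 15.3 and 23.5 against 1.83 and 1.30. LAMA4 (ENSG00000112769, chr6:112107931-112254939), the α chain found along most vessels, was at 1114.3, 1067.6, 1097.7, 1117.4 and 1089.9 CPM in EA.hy926 and at 185, 183, 179, 188 and 182 CPM in HMEC-1. The EA.hy926 libraries stood 5.98-fold above those of HMEC-1 (log2FC = 2.58 ± 0.024, adjusted p = 1.7e-26). LAMA5, the other endothelial α chain, was at 613, 567, 635, 655 and 606 CPM against 349, 316, 321, 363 and 328 CPM. It was 1.84-fold higher, which is under the fold threshold (log2FC = 0.88 ± 0.039, adjusted p = 5.6e-15). LAMB1 (ENSG00000091136, chr7:107923799-108003213), the common β chain, was at 1656.1, 1606.2, 1703.9, 1740.3 and 1706.6 CPM against 627, 629, 625, 663 and 638 CPM (2.64-fold, log2FC = 1.40 ± 0.026, adjusted p = 1.3e-21). LAMC1 (ENSG00000135862, chr1:183023420-183145592), the γ chain of nearly all laminins, was at 1455.5, 1379.6, 1466.0, 1428.2 and 1405.7 CPM against 633, 630, 628, 663 and 635 CPM (2.24-fold, log2FC = 1.16 ± 0.025, adjusted p = 1.1e-20). LAMB2, the β chain of muscle, kidney and arterial basement membranes, was at 246, 233, 251, 268 and 258 CPM against 247, 240, 257, 270 and 252 CPM. Its groups overlapped and no difference was detected (log2FC = -0.01 ± 0.035, adjusted p = 0.77).

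The remaining laminin chains were scarce. LAMA2, the α chain of muscle, had 49 to 69 counts in EA.hy926, HMEC-1 having 19 to 29 (log2FC = 1.55 ± 0.18, adjusted p = 8.8e-08). LAMB4 had 6 to 12 and 4 to 17 counts, which overlapped (log2FC = -0.20 ± 0.34, adjusted p = 0.58). LAMC3 had 1, 6, 4, 3 and 3 counts in the EA.hy926 libraries and 10, 15, 31, 9 and 10 in those of HMEC-1, which did not overlap, and it missed the filter. It entered the test when no filter was set (log2FC = -1.95) and in 6 of the 10 fits without a single library (-2.25 to -1.69), and passed both thresholds lower in each of them. LAMA1, the embryonic α chain, had at most 4 counts in any library and was not tested.

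Levels of different chains were compared per length, as RPKM over the union of annotated exons, so that the make-up of each class could be described with no test. Among β chains, ITGB1 took 44% ± 0.547 of the summed RPKM in EA.hy926 and 68.1% ± 0.765 in HMEC-1, and ITGB4 took 24.6% ± 1.16 and 4.08% ± 0.192. ITGB5 took a similar part in both lines by this length (25.2% and 23.9%). In EA.hy926 the RPKM of ITGB5 (45.5) and ITGB4 (44.5) overlapped over libraries behind ITGB1 (79.5), whereas in HMEC-1 ITGB1 (107), ITGB5 (37.7), ITGB4 (6.43) and ITGB3 (4.54) followed each other without overlap. Among α chains, ITGA5 led in both lines with 40.3% and 41.9% of the summed RPKM. Behind it, the order in EA.hy926 was ITGA6 (76.9 RPKM), ITGA3 (61.0), ITGA2 (33.9), ITGAV (15.5) and ITGA10 (13.9). In HMEC-1 it was ITGA3 (64.4 RPKM), then ITGA6 (21.6) and ITGA4 (21.1), which overlapped, then ITGAV (16.4) and ITGA10 (10.2). With the length of the longest transcript instead of all exons, ITGA6 fell below ITGA3 and ITGA2 below ITGAV in EA.hy926. In HMEC-1, ITGA4 (8.54% of the class) and ITGA6 (6.4%) both fell below ITGAV (10.3%). Under that length the shares in EA.hy926 and HMEC-1 became 60.8% and 79.8% for ITGB1. They became 19.7% and 15.8% for ITGB5, and 15% and 2.11% for ITGB4. ITGA2 took 9.65% of the α chain RPKM in EA.hy926 and 0.607% in HMEC-1, and ITGA4 took 1.60% and 8.67%.

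**Figure D3:**
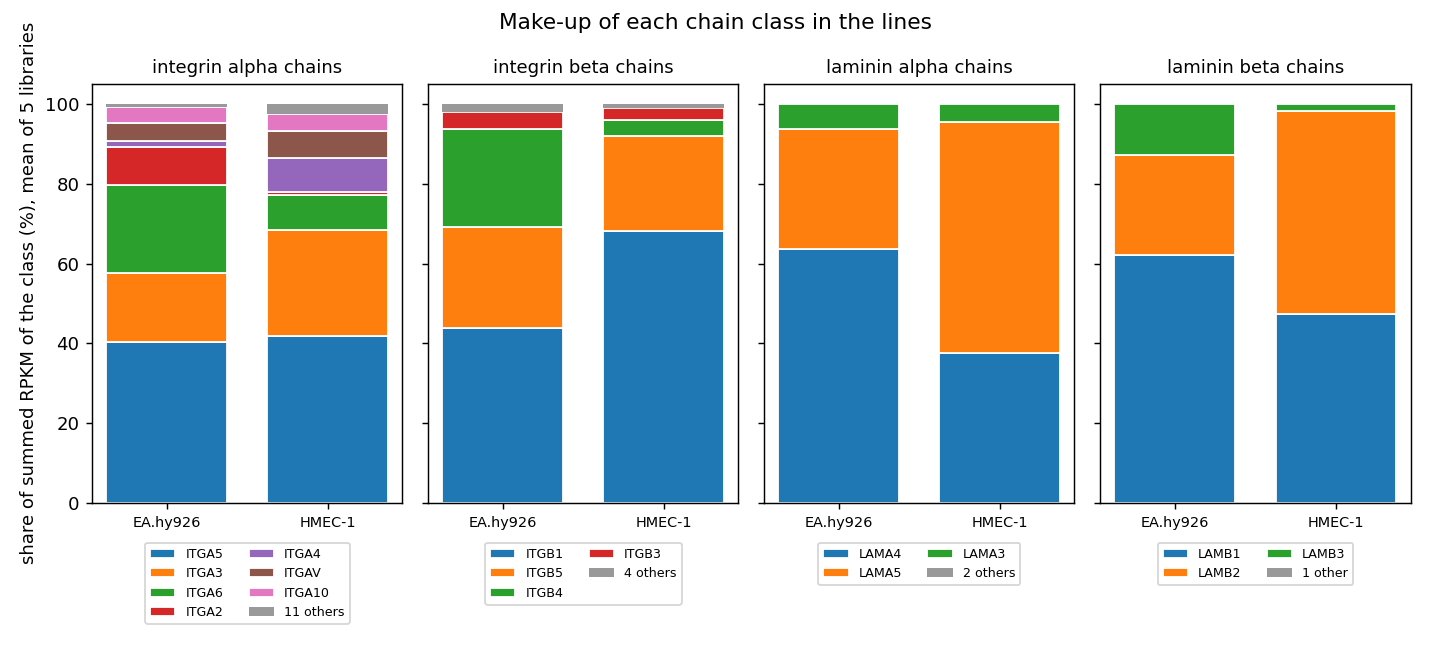
Each chain's share (%) of the summed RPKM of its class, as the mean over the 5 libraries of each line, for integrin α and β chains and laminin α and β chains; grey is the sum of the chains not named. ITGB4 widens from 4.08% in HMEC-1 to 24.6% in EA.hy926 while ITGB1 narrows from 68.1% to 44%, and the larger laminin α chain is LAMA4 in EA.hy926 (63.8%) and LAMA5 in HMEC-1 (57.7%).

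The laminin classes were also composed differently. LAMA4 took 63.8% of the α chain RPKM in EA.hy926 and 37.7% in HMEC-1, LAMA5 took 29.9% and 57.7%, and the order of both was thus opposite in the lines under either length. LAMA3 took 6.25% and 4.51%. LAMB1 led the β chains in EA.hy926 (62.2%, LAMB2 25.1%, LAMB3 12.7%), while in HMEC-1 LAMB2 (36.9 RPKM) and LAMB1 (34.2 RPKM) overlapped over libraries, with LAMB3 at 1.80% of the class. With the longest transcript as length LAMB1 led in HMEC-1 as well, at 67.3% against 31.6% for LAMB2. Summed over a class, the laminin α chains reached 144 ± 4.07 RPKM in EA.hy926 and 40.6 ± 1.66 RPKM in HMEC-1, and the β chains 146 ± 5.29 and 72.4 ± 2.41. Integrin α chains summed to 352 ± 8.47 and 243 ± 1.51 RPKM and integrin β chains to 181 ± 4.82 and 158 ± 1.02 RPKM.

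The genes around these chains were described from lists of partners. Of 9 further laminin receptors and hemidesmosome genes, 4 were higher and 0 lower past both thresholds (44.4%, beside 35.5% of all genes), by edgeR, DESeq2 and limma-voom alike. Without the fold threshold, 3 were lower. COL17A1, the transmembrane collagen of the hemidesmosome that binds ITGA6 and ITGB4, was at 134 ± 4.45 CPM in EA.hy926 against 0.161 ± 0.0718 in HMEC-1 (log2FC = 9.69 ± 0.079, adjusted p = 2.3e-27), with 3 to 9 counts in HMEC-1, and it is also one of the keratinocyte markers summed above. PLEC, the linker from ITGB4 to keratins, rose by a log2FC of 1.69 (adjusted p = 1.1e-18), and RPSA, a ribosomal protein also described as a laminin receptor, by 1.70 (adjusted p = 6.1e-23). SGCE, a sarcoglycan, was the other one past both thresholds (log2FC = 4.16). DAG1 and BCAM, the dystroglycan and Lutheran laminin receptors, were lower by less than the fold threshold (log2FC = -0.30 and -0.83), and CD151, the tetraspanin bound to laminin-binding integrins, was higher by less than it (log2FC = 0.57).

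Of 10 partners of laminins in the basement membrane that were tested, 2 were higher and 5 lower past both thresholds (70.0%, beside 35.5% of all genes, 19.1% higher and 16.4% lower). HSPG2, perlecan, was higher in EA.hy926 (2205.5 ± 116 against 519 ± 42.6 CPM, log2FC = 2.09, adjusted p = 2.4e-20), and so was COL4A6 (log2FC = 2.83). NID1, nidogen, which bridges the laminin γ1 chain to collagen IV, was lower (82.0 ± 7.78 against 717 ± 10.5 CPM, log2FC = -3.13, adjusted p = 2.1e-23). COL4A1 and COL4A2, the main collagen IV chains, had log2FC of -3.00 and -3.81, and SPARC, which binds collagen IV, of -1.79. NID2 had 3 to 9 counts in EA.hy926 but 824 to 1106 in HMEC-1 (log2FC = -7.20), with 30.7% of its exon bases shared with other genes.

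Of 21 integrin ligands outside the laminins, 19 were tested, and 2 were higher and 10 lower in EA.hy926 past both thresholds (63.2%, beside 35.5% of all genes; median log2FC = -1.16). With at least 10 counts in every library, 11 were tested and 4 passed, 0 of them higher. Under that filter 24.8% of all genes passed, 14.2% higher and 10.7% lower. FN1, fibronectin, the ligand of ITGA5 and ITGA4, was at 539 ± 19.2 CPM in EA.hy926 against 4953.3 ± 163 in HMEC-1 (log2FC = -3.20, adjusted p = 1.7e-26). COL1A1, a ligand of the collagen receptors, had 7 to 15 counts in EA.hy926 and was at 358 ± 9.29 CPM in HMEC-1 (log2FC = -10.13), and its partner COL1A2 was at least 1197.7-fold lower; both are also among the fibroblast and mural markers above. FBLN5, an elastic fibre protein, was at least 501-fold lower, computed against 3 counts per library. VTN and SPP1, vitronectin and osteopontin, were the 2 higher ones, both scarce (14 to 28 and 33 to 74 counts in EA.hy926, 1 to 6 and 0 to 2 in HMEC-1). VCAM1, the ligand of ITGA4, had at most 1 count in EA.hy926, 4 to 23 in HMEC-1, and was not tested.

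Of 28 adaptors that tie integrin tails to actin and signalling, 27 were tested, and 4 were higher and 5 lower past both thresholds (33.3%, close to the 35.5% of all genes; median log2FC = -0.02). The kindlins, which activate integrins at the β tail, split: FERMT1, the epithelial kindlin, was at 35.8 ± 2.15 CPM in EA.hy926 against 0.786 ± 0.135 in HMEC-1 (log2FC = 5.50, adjusted p = 3.5e-23), whereas FERMT2 (68.6 ± 1.29 against 237 ± 5.18 CPM, log2FC = -1.79, adjusted p = 1.8e-23) and FERMT3 (log2FC = -1.79) were lower. Of the talins, TLN1 was at 409 ± 9.83 CPM against 648 ± 24.9 CPM (log2FC = -0.66) and TLN2 at 1.53 ± 0.0623 against 19.5 ± 0.969 CPM (log2FC = -3.67). LIMS2, a partner of integrin-linked kinase, was the lowest adaptor (log2FC = -4.65). SRC, BCAR1 and TNS3 were higher (log2FC = 1.45, 1.43 and 1.20) and PTK2B lower (log2FC = -1.37). VCL, vinculin, did not pass the test (log2FC = -0.02, adjusted p = 0.51).

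**Figure D4:**
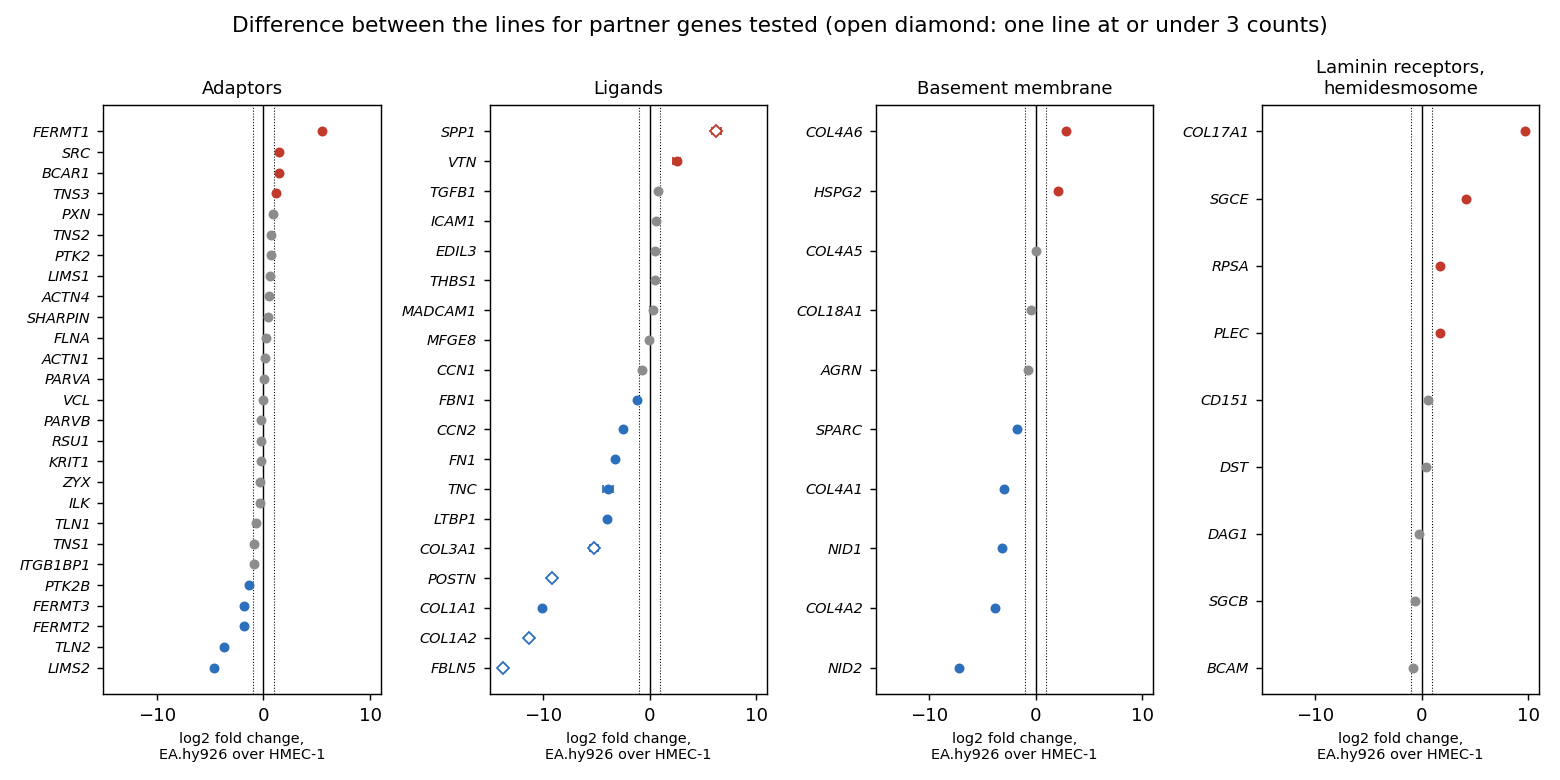
The log2 fold change of EA.hy926 over HMEC-1 (horizontal axis, standard error as a bar) for the genes tested in 4 lists of partners: 27 adaptors, 19 ligands, 10 basement membrane genes and 9 laminin receptor and hemidesmosome genes. Red and blue points passed both thresholds higher and lower, grey points did not, and open diamonds mark genes within 3 counts in every library of a line. Most ligands lie below 0, and COL17A1 lies farthest above it.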

How the data were processed

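RNA from 5 biological replicates of each line was sequenced by the authors on a NovaSeq 6000 after oligo(dT) selection. The deposited table holds raw counts per gene. Per the labels and the study's methods, reads were aligned to GRCh38 with HISAT2; the methods name HTSeq and the submitters' processing notes featureCounts as the counter, and fastp and DESeq2 are also listed. The annotation release and the strand setting are not given in the sources used here. Of 60448 listed genes, 93.4% matched GENCODE 44 by identifier, from which coordinates, exon lengths and overlaps (bedtools 2.31.1) were taken.

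Low genes were removed with filterByExpr (10 counts at least, total 15), leaving 16310, which were scaled by TMM and tested with edgeR 4.0.16 (glmQLFit and glmQLFTest), without covariates, with Benjamini-Hochberg adjustment over all of them; the thresholds were 0.05 for the adjusted p and 1 for the absolute log2FC. The SE is the absolute log2FC over the square root of F. CPM are relative to the scaled total of tested genes, and RPKM divide CPM by the length of the union of exons. A level of 3 counts was taken as the floor, 0.0781 to 0.0904 CPM for EA.hy926 and 0.0651 to 0.0856 for HMEC-1, which covers counting error only. Where every library of a line was within the floor, a bound replaces the fold. The code was tested on simulated data.

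Replicate libraries of a line correlated at 0.9949 to 0.9959 (log2 CPM), and each pair differed by more than sampling noise. Alternatives were DESeq2 1.42.0, limma-voom (limma 3.58.1), RLE factors, library totals, other filters, a test against a log2FC of 1, the replicate number as a block, leaving out each library, and the length of the longest transcript. The text names the chains, except for a chain not reported here, and, of the lists of partners, the genes farthest out past both thresholds and the defining members. The chains and lists were chosen with earlier results of these data known, so no p-value was adjusted over a list alone and no list was tested as a set. Promoter windows come from RefSeq (GRCh38.p14). Of protein sequences none was used here.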

Additional observations from a re-analysis of the deposited data

Results flagged for a closer look

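In groups of 5 libraries, a highest or lowest library was marked where its gap to the nearest other, divided by the range of the group, exceeded Dixon's 95% critical value. Of 126 values examined over chains and partner genes, 6 were marked; chance marks about 1 in 20 groups. For the chains, ITGB6 in HMEC-1 had its highest level, 0.314 CPM, in replicate 5 (nearest 0.108 CPM), and LAMC1 in HMEC-1 had its highest, 663 CPM, in replicate 4 (nearest 635 CPM). Among the partners, COL3A1 in HMEC-1 was highest in replicate 1 at 1.08 CPM (nearest 0.931), NID2 in HMEC-1 was lowest in replicate 5 at 22.1 CPM (nearest 23.5), and in replicate 1 of EA.hy926 FERMT1 was lowest at 32.1 CPM (nearest 36.2) and TNS3 highest at 206 CPM (nearest 192). Without replicate 5 of HMEC-1 the log2FC of ITGB6 was 4.17 instead of 3.51, on the same side of both thresholds.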

How the results depend on the processing

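Over the chains, 27 of 31 tested kept their direction and their side of both thresholds in every alternative that could be fitted to them. The others were ITGA2B, past the fold threshold with library totals (log2FC = -1.10) and without single libraries as given above, ITGA7 and ITGB2, which lost the call in a test against a log2FC of 1 (glmTreat, adjusted p = 0.055 and 0.072), and LAMB2, which had an adjusted p of 9.8e-04 with library totals (log2FC = -0.15). Chains past both thresholds numbered 19 of 31 tested, with DESeq2, limma-voom and RLE factors too. They numbered 22 of 37 without a filter on low counts (ITGAL and LAMC3 lower and ITGAD higher were added). With at least 10 counts in every library they were 16 of 27, with glmTreat 17 of 31 and with library totals 20 of 31. Without single libraries they were 19 to 21 of 31 or 32 tested, and LAMC3 was tested in 6 of those fits. Chains at an adjusted p under 0.05 fell from 29 to 17 with glmTreat, which tests against a fold, and integrin ligands past both thresholds from 12 to 4 with at least 10 counts in every library, where 11 were tested. Over all genes, 5784 of 16310 passed both thresholds (35.5%), 9312 of 33071 without a filter (28.2%) and 3255 of 13107 with at least 10 counts in every library (24.8%). Library totals moved the median log2FC of all genes by -0.135 and the share of higher calls among all calls from 53.8% to 47.7%.

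With the longest transcript as length, the ratio of RPKM in EA.hy926 became 0.809 for ITGA6 to ITGA3 (from 1.26) and 0.908 for ITGA2 to ITGAV (from 2.19). In HMEC-1 it became 0.83 for ITGA4 to ITGAV (from 1.29) and 0.749 for ITGA6 to ITGA4 (from 1.03).

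Libraries of both lines share replicate numbers, but the numbers did not pair them: deviations of same-numbered libraries correlated at -0.023 to 0.039, those of other numbers at -0.046 to 0.047, and 4 of 10 libraries correlated best with their own number. With the replicate number as a block, 19 chains and 5786 genes passed both thresholds, and no call of a chain changed. Depth limits ITGA8, ITGAD, ITGAL, ITGAM, ITGB7, LAMA1 and LAMC3, at too few counts for the test.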

Other observations

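Transcripts named as antisense or divergent to the chains were also listed, and the strand setting of the counting, not given in the sources used here, limits all of them. ITGA9-AS1, antisense to ITGA9, had 0 counts in each EA.hy926 library and 52 to 87 in HMEC-1, at least 18.4-fold lower against 3 counts per library (edgeR, adjusted p = 7.4e-12), the same direction as ITGA9. ITGB1-DT, divergent from ITGB1, was higher in EA.hy926 (22 to 68 against 2 to 6 counts, log2FC = 3.31, adjusted p = 1.2e-08), whereas ITGB1 itself was lower. LAMA4-AS1 (59 to 86 against 8 to 13 counts, log2FC = 2.90), LAMC1-AS1 (29 to 62 against 6 to 15, log2FC = 2.18) and ITGB2-AS1 (14 to 23 against 2 to 6, log2FC = 2.38) were higher in EA.hy926, as were their neighbours LAMA4, LAMC1 and ITGB2. ITGB8-AS1 had 18 to 34 and 4 to 24 counts, which overlapped (log2FC = 1.00, adjusted p = 4.8e-03). ITGA2-AS1, ITGA6-AS1, ITGB5-AS1 and LAMA5-AS1 had at most 10 counts in any library and were not tested.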
